A study of Equus caballus with 22 samples.

Results

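ESR1 and NR5A2 are 2 of the 675 horse genes that could be named on the array, and they were taken as every probe whose annotated transcript is the horse RefSeq transcript of either gene. That gave 8 of 43603 probes, 6 for ESR1 and 2 for NR5A2, and all 8 were among the 38461 probes bright enough to be tested. The probes were chosen by their annotation and not by their values.

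Endometrium is the mucosa that lines the uterus, and here it was sampled by biopsy from warmblood mares. In the pregnant group of day 12 the tissue was taken after the embryo had been recovered (6 mares), and in the control group of day 12 it came from the same 6 mares at the matching stage without pregnancy. The pregnant and control groups of day 8 were made in the same way from 5 mares, which carry the numbers 1, 2, 4, 5 and 6. All 22 biopsies were of the same breed and tissue, each on an array of its own, and the labels give neither the mares' ages nor a hormone treatment. Since the embryo had been flushed out before the biopsy, the pregnant samples hold tissue that had been exposed to an embryo and not the embryo itself. In whole biopsies, fewer cells of a type and less RNA per cell cannot be told apart.

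ESR1 encodes oestrogen receptor alpha, a transcription factor that binds oestradiol and then acts on the DNA of its target genes. In the uterus oestradiol drives growth of epithelium and stroma through it, while progesterone in the luteal phase is known to hold its level down in many mammals. NR5A2 encodes liver receptor homologue 1, a relative of steroidogenic factor 1 (NR5A1) that binds DNA as a monomer. It is known for control of steroid and bile acid synthesis, for its part in the ovary, and for a requirement in the mouse uterus when stroma turns into decidua. Both belong to the nuclear receptor family.

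The level of a probe is given as the log2 of its processed fluorescence intensity relative to the 75th percentile of the same array, so that 0 is the brightness of that percentile. The 75th percentile itself lay between 577 and 1863 intensity units, and between 74.2% and 92.9% of spots per array were well above background by the scanner software. No spot was saturated. Among markers of the tissue, 1 of 7 epithelial genes (ESRP1) and 2 of 7 stromal genes (DCN and LUM) could be measured and all were bright. ESRP1 stood between 2.47 and 3.16 over all groups, and the summed stromal level stood between 3.66 and 4.95. Of the conceptus genes 1 of 6 was measured, the pregnancy-associated glycoprotein PAG, whose level lay between -6.05 and -4.59 in pregnant and between -5.87 and -4.54 in control samples of day 12. The marker of endothelium, PECAM1, and that of smooth muscle, TAGLN, differed in their medians between groups: PECAM1 stood at 0.96 and 0.61 in pregnant and control samples of day 12 and at 0.04 and -0.02 at day 8, and TAGLN at -0.90 and -1.70 and at -1.79 and -2.26. In all, 12 marker genes of 8 cell types were measured. Of these 5 passed between days in pregnant samples, where 24.3% of all probes did: PECAM1 (0.92 higher at day 12, adjusted p = 0.00589), TAGLN (0.84 higher, 0.0462) and the macrophage gene CD14 (1.01 higher, 0.00183) rose, and the platelet gene ITGA2B (-0.84, 0.00283) and the stromal LUM (-0.63, 0.0418) fell. LUM passed by 1 of its 6 probes, which ranged from -0.63 to -0.22. The other stromal gene, DCN, stood at -0.36 (adjusted p = 0.124), and the other 3 macrophage genes stood between -0.61 and -0.17 by their brightest probes. The lowest of these 3, ITGAX, ranged from -0.61 to 0.83 over its 7 probes. None of the 12 passed with pregnancy at either day or between days in control samples, the last with LUM at -0.67 and ITGA2B at -0.62 (adjusted p = 0.110 and 0.0570). Their part in the differences described below was not tested.

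The 6 ESR1 probes gave 2 different readings. Probe A_69_P000806 was among the brightest of the array, with intensities from 19206 to 97451 units. The other 5, A_69_P004786 to A_69_P004790, had intensities from 189 to 643 units. All 6 are annotated to the same transcript, NM_001081772, and all were well above background on 22 of 22 arrays. Brightness depends on the sequence and position of a probe, so the intensities of different probes do not rank amounts of transcript. The 5 dimmer probes rose and fell together: over 22 arrays, with the mean of each day subtracted, their 10 pairs correlated at r = 0.917 to 0.996, and on an array they differed among themselves by a median of 0.14 on the log2 scale. Their mean is therefore used to describe them, a choice made after their values were seen, and tests are given for each probe. The brighter probe followed that mean at day 12 (r = 0.91 over 12 arrays) but not at day 8 (r = 0.03 over 10 arrays). The arrays of a day share mares, slides and scaling, so these correlations are descriptions.

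**Figure D1:**
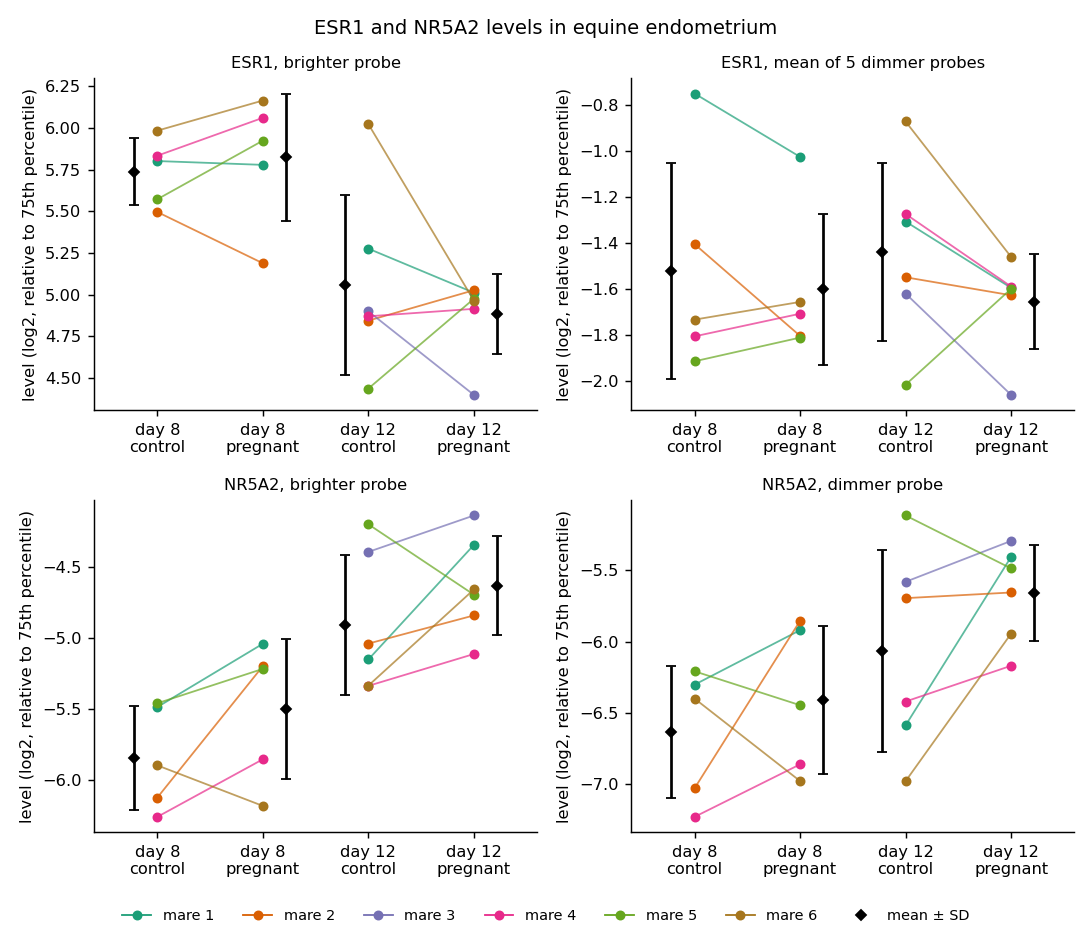
Levels of ESR1 and NR5A2 (log2 relative to the 75th percentile of each array) in the 4 groups; points are single samples, lines join the control and pregnant sample of a mare, colours give the mare number within its day, and diamonds with bars are group means with SD. The brighter ESR1 probe had a mean of 5.74 and 5.82 at day 8 and of 5.06 and 4.88 at day 12, whereas the mean of the 5 dimmer probes stayed between -1.65 and -1.44 in all groups.

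Both readings of ESR1 gave the same answer to the question of pregnancy at day 12: no difference passed the test. For the brighter probe the levels of the pregnant samples were 5.01, 5.03, 4.40, 4.92, 4.98 and 4.96 in mares 1 to 6, with a mean of 4.88 ± 0.24 (SD, n = 6). The control samples of the same mares were at 5.28, 4.85, 4.90, 4.87, 4.44 and 6.02, with a mean of 5.06 ± 0.54 (SD, n = 6). The groups overlap, the control sample of mare 6 was the highest and that of mare 5 was close to the lowest, and 3 of 6 mares were lower in pregnancy. The difference in level was -0.18 ± 0.17 (log2, SE; limma with mare as a block, Benjamini-Hochberg adjusted p = 0.722), with a 95% interval from -0.55 to 0.20, and without mare 6 it was 5.03e-05. Across all probes 0.265% passed in this comparison.

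The mean of the 5 dimmer probes was lower in pregnancy in 5 of 6 mares at day 12. The pregnant samples were at -1.59, -1.63, -2.06, -1.59, -1.60 and -1.46, and the control samples at -1.31, -1.55, -1.62, -1.27, -2.01 and -0.87 in mares 1 to 6. Mare 5 was the exception, with the lowest control level and a pregnant level 0.42 above it. Its control array had the highest share of spots well above background of any array, 92.9%. Its pregnant array had 84.1% and the most non-uniform spots, 152. The part of array quality in this exception was not tested. Probe by probe, the differences were -0.26 to -0.15 and the adjusted p-values 0.402 to 0.711, so none of the 5 passed. The difference was largest in size for A_69_P004790, at -0.26 ± 0.12 (SE), with an exact sign-flip permutation p of 0.09375 where the smallest possible for 6 mares is 0.03125 (two-sided). Of all probes, 19.1% were lower in 5 or more of the 6 mares at day 12, and 14% were higher.

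At day 8 no ESR1 probe differed with pregnancy beyond the spread between mares. The brighter probe stood at 5.78, 5.19, 6.06, 5.92 and 6.16 in the pregnant samples of mares 1, 2, 4, 5 and 6 and at 5.80, 5.50, 5.83, 5.57 and 5.98 in their controls. It was higher in 3 of 5 mares and lower in the other two, with a mean difference of 0.09 ± 0.19 (SE; adjusted p = 0.978) and a 95% interval from -0.33 to 0.50. The mean of the 5 dimmer probes was at -1.03, -1.80, -1.71, -1.81 and -1.66 in the pregnant and at -0.75, -1.40, -1.80, -1.91 and -1.73 in the control samples. In both groups mare 1 was the highest. The single dimmer probes differed by -0.11 to -0.06 (adjusted p = 0.957 to 0.976). With limma 0% of all probes passed the threshold at day 8, although 2243 of 38457 had an unadjusted p under 0.05.

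The pregnancy effect of ESR1 at day 12 also did not differ from that at day 8 beyond its error. The interaction was -0.26 ± 0.26 (SE; adjusted p = 0.739) for the brighter probe and -0.20 to -0.04 for the other 5 (adjusted p = 0.712 to 0.959). In this test 0.0104% of all probes passed.

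NR5A2 was read by dim probes. A_69_P000876 had intensities from 12.9 to 91.8 units and was well above background on all 22 arrays. A_69_P000877 had intensities from 5.17 to 44.5 units and was well above background on 21 of them, the exception being the day 12 control of mare 6. Both are annotated to NM_001081795. The 2 probes agreed, with r = 0.89 over 22 arrays after the mean of each day was subtracted.

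NR5A2 was higher in the pregnant sample in most mares at both days, but the difference passed no test. By A_69_P000876 the pregnant samples of day 12 were at -4.34, -4.84, -4.14, -5.11, -4.69 and -4.66 in mares 1 to 6. Their controls were at -5.15, -5.04, -4.39, -5.34, -4.20 and -5.33. In 5 of 6 mares the pregnant sample was the higher one, and in mare 5 it was lower by 0.50. The mean was -4.63 ± 0.35 in pregnant and -4.91 ± 0.49 in control samples (SD, n = 6), a difference of 0.28 ± 0.17 (SE; adjusted p = 0.551; 95% interval -0.10 to 0.65). The dimmer probe gave 0.41 ± 0.24 (SE; adjusted p = 0.522) and was higher in the same count of mares, 5 of 6.

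At day 8 the levels of A_69_P000876 were -5.04, -5.20, -5.85, -5.22 and -6.18 in the pregnant samples of mares 1, 2, 4, 5 and 6. The controls of these mares were at -5.48, -6.12, -6.26, -5.46 and -5.89. The pregnant sample was higher in 4 of 5 mares, by 0.93 in mare 2, while mare 6 was lower by 0.29; of all probes, 20% were higher in 4 or more of the 5 mares. The difference was 0.35 ± 0.19 (SE; adjusted p = 0.850; 95% interval -0.06 to 0.76), and by A_69_P000877 it was 0.22 ± 0.26 (adjusted p = 0.941), with 3 of 5 mares higher. The interaction between day and pregnancy was -0.07 ± 0.25 (SE; adjusted p = 0.944) and 0.18 ± 0.35 (adjusted p = 0.877) for the 2 probes, which is opposite in sign.

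The levels of the 2 receptors tended to move in opposite directions within a mare, a pattern that was noticed after the values were seen. The plot of changes within mares shows it. At day 12 the mean of the 5 dimmer ESR1 probes and A_69_P000876 changed with opposite signs in 6 of 6 mares. Since the first was lower in 5 of 6 mares and the second higher in 5 of 6, most signs had to be opposite. The count adds only that both had the same exception, mare 5. How many other pairs of probes do so was not counted. Mares 1, 3 and 6 had the lower ESR1 (-0.29, -0.44 and -0.59) with the higher NR5A2 (0.81, 0.26 and 0.68), and mare 5 had the higher ESR1 (0.42) with the lower NR5A2 (-0.50). At day 8 the signs were opposite in 3 of 5 mares, with mares 4 and 5 higher for both genes.

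By the brighter ESR1 probe the signs were opposite in 4 of 6 mares at day 12, and the changes correlated with those of A_69_P000876 at Pearson r = -0.77 (exact permutation p = 0.0681, two-sided) and Spearman rho = -0.83 (exact permutation p = 0.0583) over the 6 mares. Benjamini-Hochberg adjustment over the 16 relations computed between changes of the 2 genes gave 0.109 for the Pearson value, and without the 2 mares farthest from the median ESR1 change r was -0.36. The mean of the 5 dimmer probes gave r = -0.84 with A_69_P000876 at day 12, and -0.11 without 2 mares. Over the 11 changes of both days, 3 of the 4 relations had an adjusted p of 0.0442 (two-sided permutation test). This test shuffled the 11 changes across days and treated them as coming from separate animals. Its p-values hold only if that is so, which the labels do not say. The mean of the 5 stood at r = -0.75 with A_69_P000876 and -0.76 with A_69_P000877, and the brighter ESR1 probe at -0.73 with A_69_P000877. The brighter ESR1 probe with A_69_P000876 stood at -0.65 (adjusted permutation p = 0.109). Without the 2 changes farthest from the median ESR1 change these 4 were -0.59, -0.67, -0.87 and -0.86. None of the 8 relations tested after quantile normalisation passed by Pearson r, with adjusted permutation p from 0.109 to 0.301. There the brighter ESR1 probe and A_69_P000876 stood at r = -0.55 at day 12 and at -0.89 without 2 mares. By rank in that scaling, over both days, the brighter ESR1 probe gave Spearman rho = -0.73 with A_69_P000876 and -0.81 with A_69_P000877. The permutation p-values were 0.0139 and 0.00391, not adjusted. The mean of the 5 gave rho = -0.43 and -0.59 (permutation p = 0.191 and 0.0602, not adjusted). How far these relations rest on single mares thus differed with day, probe and scaling, and equal numbers at the 2 days may or may not be the same animal.

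Measures of the arrays moved with the probes too, and not always alike at the 2 days. At day 12 the share of spots well above background correlated at -0.73 with the mean of the 5 ESR1 probes and at 0.62 with A_69_P000876 over 12 arrays, and after quantile normalisation at -0.77 and 0.12. At day 8 it correlated at -0.62 and -0.37 over 10 arrays, negative for both of these readings. With the brighter ESR1 probe it correlated at -0.63 at day 12 and at 0.42 at day 8. The 75th percentile intensity correlated at -0.61 with the mean of the 5 ESR1 probes and at 0.73 with A_69_P000876 at day 12. At day 8 it correlated at -0.84 and -0.40. After quantile normalisation these values were -0.63 and 0.38 at day 12 and -0.82 and -0.11 at day 8. For the brighter ESR1 probe, before that normalisation, they were -0.44 at day 12 and -0.17 at day 8. The part of these array measures in the opposite changes was not tested.

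**Figure D2:**
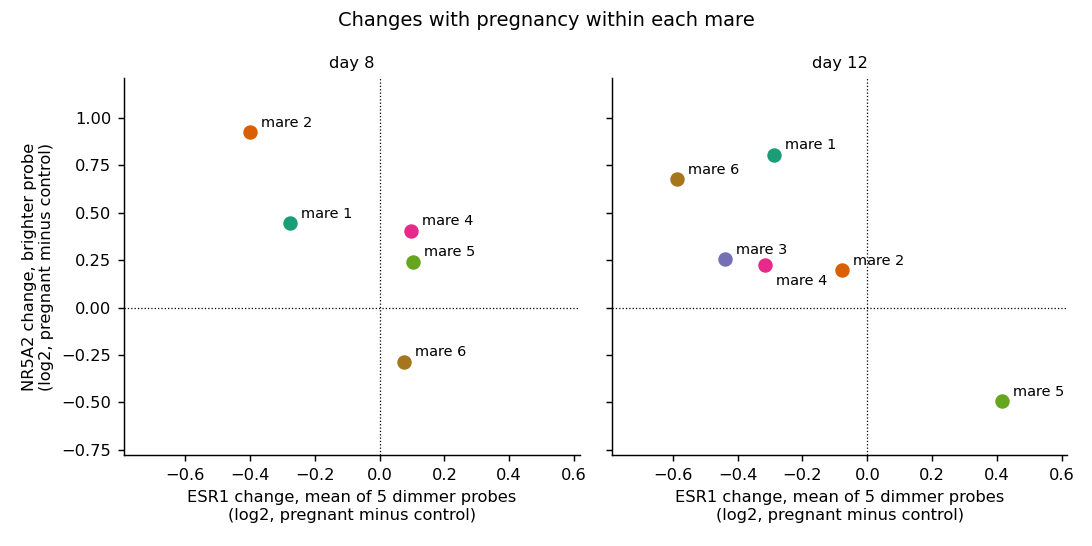
Change of NR5A2 (A_69_P000876) against change of ESR1 (mean of the 5 dimmer probes) within each mare, both as log2 pregnant minus control, with 1 point per mare and dotted lines at no change. At day 12 all 6 mares lie to the upper left or lower right of the crossing lines, and at day 8 mares 4 and 5 lie in the upper right.

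Between the days the question is how each receptor stood at day 12 against day 8, within control or within pregnant samples. This difference carries a limit in the design: day 12 arrays lay on 4 slides scanned on 3 days and day 8 arrays on 3 other slides scanned on 2 other days, with different versions of the scanner software. Day of sampling and array batch cannot be told apart. The labels do not say whether the mares of the 2 days are the same animals.

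ESR1 fell from day 8 to day 12 by its brighter probe in the pregnant samples. The 6 values of day 12 lay between 4.40 and 5.03 and the 5 of day 8 between 5.19 and 6.16, so the groups did not overlap. The difference in level was -0.94 ± 0.19 (log2, SE; limma, adjusted p = 0.00633), or 1.92-fold lower at day 12, and the exact permutation p was 0.0021645, the smallest that 6 against 5 samples allow. In this comparison 24.3% of all probes passed, 13.1% being lower at day 12, and 8.24% of probes had day 12 wholly below day 8. In the control samples the same probe lay between 4.44 and 6.02 at day 12 and between 5.50 and 5.98 at day 8. The control of mare 6 at day 12 exceeded every control of day 8, and the difference of -0.68 ± 0.25 did not pass (adjusted p = 0.114; 7.09% of all probes passed, 4.62% as lower). The fall in pregnant samples was -0.55 after quantile normalisation (adjusted p = 0.0645), -1.03 with normexp background correction (0.0769) and -0.79 in the authors' deposited value table (0.418), and did not pass in these 3. It passed in all 6 fits that left out mares of 1 number, at -1.13 to -0.84. By scanning day, over control and pregnant arrays together, the probe had means of 4.90, 4.82 and 5.19 at day 12. At day 8 these means were 5.57 and 5.92. The stromal gene LUM fell in the same samples by its brightest probe, by 0.63 on the log2 scale. Only 1 of its 6 probes passed, and they ranged from -0.63 to -0.22. The other stromal gene, DCN, stood at -0.36 (adjusted p = 0.124). The part of stromal cells in the fall of ESR1 was not tested.

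The 5 dimmer ESR1 probes showed no such fall. In the pregnant samples they differed between days by -0.11 to 0.0032 (adjusted p = 0.659 to 0.991), and their 95% intervals lay between -0.49 and 0.39, which leaves out a fall of the size the brighter probe gave. In the control samples they were 0.05 to 0.19 higher at day 12 (adjusted p = 0.671 to 0.930).

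**Figure D3:**
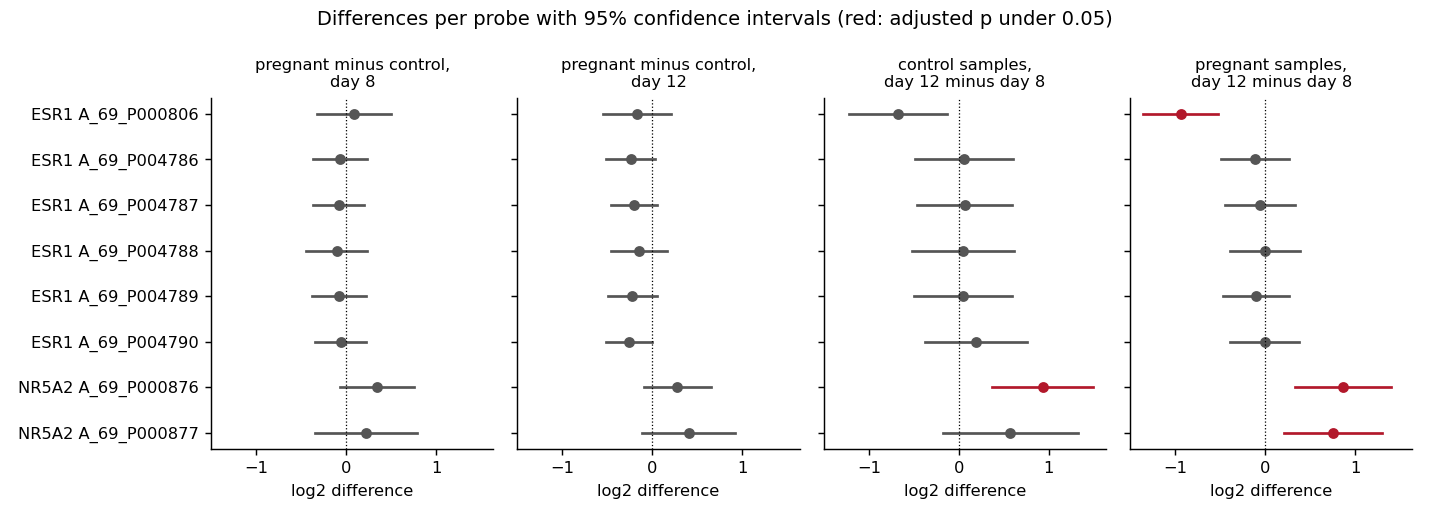
Differences in level (log2) for each of the 8 probes in 4 comparisons, with 95% confidence intervals from limma; red marks an adjusted p under 0.05. In the pregnant samples the brighter ESR1 probe stands at -0.94 and the other 5 lie between -0.11 and 0.0032, and the NR5A2 probes stand at 0.87 and 0.76.

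The disagreement was then put as the distance between the brighter probe and each dimmer probe within an array. A scaling constant per array leaves this distance unchanged but quantile normalisation does not. These tests were made after the disagreement was seen, so they partly restate it. The 5 dimmer probes rise and fall together, so their tests are not separate, and the permutations take no account of scanning day. In the pregnant samples the distance was 0.83 to 0.94 narrower at day 12 for the 5 probes, with no overlap between the days (exact permutation p = 0.0021645 for each, the smallest possible, and 0.0104 after adjustment over 24 such tests). In the control samples it was 0.72 to 0.87 narrower (exact permutation p = 0.00649 to 0.0238, adjusted 0.0260 to 0.0571), and 2 of the 5 probes passed after adjustment. After quantile normalisation, an alternative added after these values were seen, the days overlapped in both kinds of sample. The distance was then 0.34 to 0.45 narrower at day 12 in pregnant samples (exact permutation p = 0.0909 to 0.156, adjusted 0.312 over 10 tests) and 0.24 to 0.39 narrower in control samples (exact permutation p = 0.206 to 0.392), and none of the 10 tests passed. Taken as the mean of the 5, the log2 distance was 6.50 ± 0.25 in control and 6.54 ± 0.09 in pregnant samples of day 12 (SD, n = 6), and 7.26 ± 0.51 and 7.42 ± 0.48 at day 8 (SD, n = 5).

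Within day 8 the distance went with the scanning day. Mares 1 and 2, whose 4 arrays shared a slide and a scanning day, had distances from 6.55 to 6.99. Mares 4, 5 and 6, whose 6 arrays were scanned on another day, had distances from 7.48 to 7.82. The 3 scanning days of day 12 gave 6.46 to 6.61, 6.39 to 6.65 and 6.14 to 6.89, so the first 2 mares of day 8 reached into the range of day 12. After quantile normalisation mare 1 of day 8, at 6.02 in control and 6.36 in pregnant samples, lay below every sample of the same kind at day 12. Scanning day and mare cannot be told apart here.

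With pregnancy no change in the distance passed. At day 8 it was wider in the pregnant sample in 5 of 5 mares for each of the 5 probes, by a mean of 0.15 to 0.19, with an exact permutation p of 0.0625 that is the smallest 5 mares allow (adjusted p = 0.1). At day 12 the mean changes were -0.03 to 0.08 (exact permutation p = 0.531 to 0.844).

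**Figure D4:**
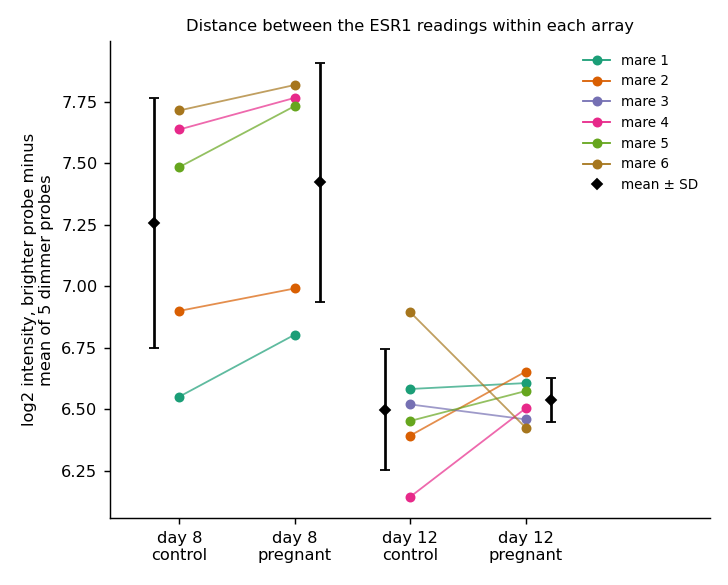
Log2 distance between the brighter ESR1 probe and the mean of the 5 dimmer ESR1 probes on each array, with lines joining the samples of a mare and diamonds with bars for group means with SD. Day 12 arrays lie between 6.14 and 6.89, and at day 8 mares 4, 5 and 6 lie between 7.48 and 7.82 and mares 1 and 2 between 6.55 and 6.99.

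NR5A2 rose from day 8 to day 12 by A_69_P000876 in both kinds of sample. In the control samples the day 12 levels lay between -5.34 and -4.20 and the day 8 levels between -6.26 and -5.46, without overlap, while 2.8% of all probes had day 12 controls wholly above day 8 and 2.47% passed as higher. The difference was 0.94 ± 0.26 (log2, SE), or 1.91-fold higher at day 12 (limma, adjusted p = 0.0498; exact permutation p = 0.00649). This call was at the edge of the threshold: it passed in 0 of 6 fits that left out mares of 1 number (adjusted p = 0.0743 to 0.119, at 0.83 to 1.07). In the pregnant samples the levels were -5.11 to -4.14 at day 12 and -6.18 to -5.04 at day 8, overlapping by the lowest sample of day 12. The difference was 0.87 ± 0.24 (SE), or 1.82-fold (adjusted p = 0.0244, with 11.1% of all probes passing as higher; exact permutation p = 0.00649), and it passed in 2 of 6 such fits, those without the mares numbered 1 or 2. Without mares 3, 4, 5 or 6 the adjusted p was 0.0514, 0.0509, 0.0539 or 0.0816.

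The dimmer NR5A2 probe gave 0.57 ± 0.34 in control samples (adjusted p = 0.312) and 0.76 ± 0.25 in pregnant samples (adjusted p = 0.0450), a call that 14 of its alternatives lost. The distance between the 2 NR5A2 probes did not differ between days beyond the spread of samples (exact permutation p = 0.0693 in control and 0.385 in pregnant samples). The level of A_69_P000876 also differed between scanning days of the same day. Over control and pregnant arrays together, the means were -4.51, -4.69 and -5.11 at day 12 and -5.46 and -5.81 at day 8. The arrays of mares 4 and 6 of day 12 (-5.34 to -4.66) overlapped those of mares 1 and 2 of day 8 (-6.12 to -5.04). With scanning day as a random block, the differences of A_69_P000876 were 0.93 (adjusted p = 0.220) in control and 0.83 (adjusted p = 0.0942) in pregnant samples, and neither passed. With normexp background correction in place of the scanner's own they were 0.23 and 0.89 (adjusted p = 0.610 and 0.504), and 0.48 and 0.46 were the differences in the authors' deposited table of values.

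In order of level, the groups ran from day 12 pregnant over day 12 control and day 8 control to day 8 pregnant for the brighter ESR1 probe, from the lowest to the highest. For NR5A2 by A_69_P000876 the order was day 8 control at -5.84 ± 0.36, day 8 pregnant at -5.50 ± 0.49, day 12 control at -4.91 ± 0.49 and day 12 pregnant at -4.63 ± 0.35. In neither order did the pregnant and control group of a day differ beyond their spread, and neighbours of unlike day and state were not tested.

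The relatives and partners of the 2 receptors were read through lists of genes, each by its brightest probe, and are counted beside all probes tested, of which the median difference was between -0.03 and 0.0033 in the 5 comparisons. Of 48 nuclear receptors 4 could be measured: ESR1, NR5A2, NR5A1 (steroidogenic factor 1) and RARB (retinoic acid receptor beta). None passed with pregnancy at either day. Between the days in pregnant samples RARB rose by 0.63 ± 0.15 (SE; adjusted p = 0.0125) with both of its probes, so that 2 of the 4 were called higher (NR5A2 and RARB) and 1 lower (ESR1), where 11.1% of all probes passed as higher and 13.1% as lower. NR5A1 stood at 0.51 in control and 0.49 in pregnant samples (adjusted p = 0.355 and 0.165). The smallest p with pregnancy at day 12 was that of RARB, at 0.46 (adjusted p = 0.325).

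Of 34 coregulators and chaperone partners 7 were measured. None passed with pregnancy, where PPARGC1A, a coactivator of NR5A2 and other receptors, stood at 0.42 at day 12 (adjusted p = 0.359). From day 8 to day 12 the chaperone HSPA8 fell in both control and pregnant samples, by 1.02 ± 0.18 (SE; adjusted p = 0.0108) and by 1.01 ± 0.15 (adjusted p = 0.00165). HSP90AB1, a subunit of the chaperone that holds unliganded steroid receptors, fell in pregnant samples by 0.67 ± 0.18 (adjusted p = 0.0230), by 5 of its 6 probes. In control samples HSP90AB1 stood at -0.51 (adjusted p = 0.188). PGRMC1 did not pass by its brightest probe, but the dimmer of its 2 probes passed in control and pregnant samples, at -0.87 and -1.02. The medians of this list were 0.11 and 0.18 in the 2 comparisons between days, with 4 of 7 genes higher in each. By brightest probe 1 of 7 passed in control and 2 of 7 in pregnant samples, where 7.09% and 24.3% of all probes passed.

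Of 36 oestrogen-responsive genes 4 were measured, and none passed in any comparison by its brightest probe (1 of the 10 VEGFA probes passed between days in control samples). All 4 stood higher in pregnant than control samples at day 12, with a median of 0.21: the early-response gene FOS at 1.64 ± 0.81 (SE; adjusted p = 0.441), MMP9 at 0.27, IGF1 at 0.14 and VEGFA at 0.12. Between days IGF1, a growth factor, stood at 0.58 in control samples (adjusted p = 0.109), and MMP9, a matrix protease, stood at 1.66 in pregnant samples (adjusted p = 0.0833).

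Of 51 progesterone-responsive and receptivity genes 12 were measured, and none passed with pregnancy by its brightest probe, although the dimmer of 2 probes of CALCA passed at day 12, at 2.23. The smallest p at day 12 belonged to TIMP1, an inhibitor of matrix proteases, at 0.60 ± 0.15 (adjusted p = 0.117), followed by HSD11B2, which inactivates glucocorticoids, at -0.77 ± 0.23 (adjusted p = 0.193). From day 8 to day 12 HSD11B2 fell by 1.48 ± 0.26 in control (adjusted p = 0.0109) and in pregnant samples the difference was -1.98 ± 0.23 (adjusted p = 0.000521). The secreted phospholipase PLA2G2A fell in pregnant samples by 1.39 ± 0.40 (adjusted p = 0.0278, 5 of 5 probes), and the growth factor receptor MET rose there by 0.67 ± 0.17 (adjusted p = 0.0161, 3 of 3 probes). In control samples PLA2G2A stood at -1.36 by its brightest probe (adjusted p = 0.117), and 3 of its 5 probes passed. MET stood at 0.28 in control samples (adjusted p = 0.522). The list was lower in 9 of 12 genes in control and in 8 of 12 in pregnant samples, with medians of -0.12 and -0.27. By brightest probe 1 of 12 passed in control and 3 of 12 in pregnant samples, where 7.09% and 24.3% of all probes passed.

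Of 48 genes of the NR5A targets and steroid synthesis list 13 were measured, HSD11B2 among them. Between days 10 of 13 were lower at day 12 in control samples and 11 of 13 in pregnant samples, with medians of -0.44 and -0.63, where over all probes 48.9% and 48.3% were higher. These counts rest on the brightest probe of each gene. In control samples the probes of AKR1C1 ranged from -0.44 to 2.76, of CYP19A1 from -0.90 to 0.76 and of STAR from -1.44 to 0.37. All probes of CYP11A1 and INHBA were lower there, and in pregnant samples too. In pregnant samples the probes of AKR1C1 ranged from -0.64 to 0.99 and of STAR from -0.66 to 0.18. The dimmer of the 2 CYP17A1 probes passed in pregnant samples, at -0.61, and the brightest did not. In control samples 1 of the 13 passed (HSD11B2), a share near the 7.09% of all probes. In pregnant samples 3 of the 13 passed, near the 24.3% of all probes, and all 3 were lower: HSD11B2, HSD3B2, which makes progesterone and androstenedione from their precursors, at -1.52 ± 0.31 (SE; adjusted p = 0.00635), and HSD17B1, which reduces oestrone to oestradiol, at -0.71 ± 0.18 (adjusted p = 0.0185). In control samples HSD3B2 and HSD17B1 stood at -1.13 and -0.62 (adjusted p = 0.105 and 0.0831). Aromatase, CYP19A1, stood at -0.63 in pregnant samples (adjusted p = 0.235) by its brightest probe, and its 6 probes ranged there from -0.63 to 0.44. With pregnancy none of the 13 passed, and the smallest p at day 12 was that of CYP17A1 at -0.24 ± 0.07 (adjusted p = 0.178).

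Last, the named genes most like each receptor were taken from 503 genes that were well above background on all 22 arrays, by Pearson correlation over the 22 arrays after the mean of each day was subtracted. Paired samples of a mare enter together, so the values are descriptions. For the brighter ESR1 probe the highest were MAOA, which breaks down monoamines (r = 0.79), PLA2G2A (0.72), SERTAD4 (0.66), the elastase inhibitor SERPINB1 (0.65) and HSPA8 (0.64). MAOA held at both days, with 0.85 at day 12 and 0.63 at day 8, whereas SERPINB1 stood at 0.79 and 0.19. The lowest were P-selectin, SELP (-0.62), the glycogen branching enzyme GBE1 (-0.61) and the defensin DEFB4B (-0.61), and NR5A2 was at -0.55, rank 496 of 503.

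For the mean of the 5 dimmer ESR1 probes the most like genes were others, namely RAVER1 (0.85), the anion exchanger SLC4A2 (0.84), SUZ12, a subunit of a repressive chromatin complex (0.79), LOC100033916 (0.76) and the lactate transporter SLC16A3 (0.73). The least like were the iron regulatory protein gene IREB2 (-0.90), the magnesium transporter gene MAGT1 (-0.84) and KLF10 (-0.77). NR5A2 stood at -0.28 against this mean, rank 385 of 503, with -0.83 over the 12 arrays of day 12 and 0.24 over the 10 of day 8. For NR5A2 itself, the RNA-binding protein gene QKI was highest (0.72), before the RNA helicase gene DDX6 (0.63), CCDC6 (0.63), C14H5orf46 (0.58) and ZNF652 (0.57). The lysosomal enzyme gene IDUA was lowest (-0.74), after COPZ1 (-0.68) and DCTN1 (-0.66), which encode subunits of the coatomer and of dynactin.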

How the data were processed

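RNA of 22 biopsies was labelled with Cy3 and put on 1-colour Agilent horse arrays, as the labels' protocols state. The deposited scanner files hold linear spot intensities made by the authors with Agilent Feature Extraction, version 10.5.1.1 for day 12 and 10.7.3.1 for day 8 per the file headers. The authors' deposited value table, read as log2 values, served as an alternative.

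Spots marked as non-uniform outliers were dropped, the log2 processed intensity was set against the 75th percentile of each array, spots of a probe were averaged, and probes well above background on at least 5 of 22 arrays were tested with limma 3.58.1 in R 4.3.3. Pregnancy was tested within mare, with mare as a block and 1 effect per day. Days were compared separately in control and in pregnant samples. P-values were adjusted over all probes tested (Benjamini-Hochberg, threshold 0.05). Exact permutation tests were two-sided. The pairing was checked: samples of 1 mare deviated together (r = 0.289 to 0.817). All 11 pregnant samples matched best with the control of their own mare. Every pair lay on 1 slide and was scanned on 1 day, so changes within mare are also changes within these batches.

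Probe names came from accessions matched to a RefSeq table of another assembly: 1394 probes had 1 symbol, 1 had several and 42208 had none here, so coordinates are not printed. A gene in a list stood by its brightest probe. Named list genes were those past the threshold, up to 4 per list and comparison by p, or else those with the smallest p; named like genes were the 5 highest and 3 lowest correlations. The members and lists were chosen with earlier results of these data known. Alternatives were quantile and median scaling, normexp with an offset of 50 (on median signals, since the files have no mean signal column), other filters, a trended robust prior, blocks, the mean over a gene's probes, and each mare number left out. On simulated data, log2 changes of 1 were called in 75% of probes in the day 12 pregnancy comparison and 14% in the control comparison of days, and changes of 2 in 91% and 88%. The simulation changed 100 of 38103 probes by each size, with a spread between mares set by hand and no slide or scanning effect. In the data 2727 probes passed in the control comparison of days, so these shares may not hold there.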

Additional observations from a re-analysis of the deposited data

Results flagged for a closer look

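Single samples stood apart from the rest of their group for ESR1, by the gap to the nearest sample as a share of the group's range. In the pregnant group of day 12 mare 3 was the lowest: the share was 0.822 for A_69_P000806, where it stood at 4.40, 0.75 for A_69_P004786, 0.73 for A_69_P004787 and 0.722 for the mean of the 5 dimmer probes, with levels of -2.06 for these last 3. In the pregnant group of day 8 mare 1 was the highest, with shares of 0.814 for A_69_P004786 (-0.95), 0.819 for A_69_P004787 (-0.97), 0.837 for A_69_P004790 (-1.06) and 0.803 for the mean of the 5 (-1.03). These are 8 of 54 groups or sets of changes checked, and chance marks about 1 in 20. The 5 dimmer probes share a target, so the shares of 1 mare are not separate observations.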

How the results depend on the processing

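No difference with pregnancy in ESR1 or NR5A2 passed the threshold under any alternative run, at either day or in the interaction. Without mares of 1 number, the day 12 difference ran from -0.32 to 5.03e-05 for the brighter ESR1 probe, the value at the upper end being that without mare 6. At day 8 the mean over all ESR1 probes gave -0.052. The interaction of NR5A2 was 0.66 with normexp background correction and 0.057 as a mean over both probes, and ran from -0.31 to 0.092 without mares of 1 number. For its dimmer probe these ranges were -0.14 to 0.49 for the interaction and -0.016 to 0.42 at day 8.

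The fall of the brighter ESR1 probe between days in pregnant samples did not pass with quantile normalisation (-0.55), normexp (-1.03), the authors' value table (-0.79) or the mean over all 6 probes (-0.20). The last of these follows from the disagreement of the probes, and the cause of the others was not tested. It passed with slide or scanning day as a random block (-0.94 and -0.91).

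The rise of NR5A2 in control samples did not pass with normexp (0.23), the authors' table (0.48), no filter on dim probes or a trended robust prior (0.94 in both), slide or scanning day as a random block (0.98 and 0.93), or the mean over both probes (0.75). In pregnant samples it did not pass with normexp (0.89), the authors' table (0.46) or scanning day as a random block (0.83). Without mares of 1 number it ran from 0.83 to 1.07 in control and from 0.70 to 0.98 in pregnant samples.

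Numbers shared between day 8 and day 12 do not show that mares are the same: same-numbered samples of the 2 days correlated at -0.153 to 0.342. With the mare number as a replicate block the NR5A2 difference was 0.83 in control samples and 0.77 in pregnant samples, neither past the threshold, ESR1 in pregnant samples was -0.84 and passed, and 31 and 5094 probes passed in all. Without the block of mare in the pregnancy comparisons, 41 probes passed at day 12 and 0 in the interaction.

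The mean of the 5 dimmer ESR1 probes, near 0 in most comparisons, changed sign with normexp (0.033 at day 12, 0.12 for the interaction and 0.19 between days in pregnant samples), with the authors' table (0.070) and with the mare number as a block (0.027), the last 2 in pregnant samples. Without mares of 1 number it ran from -0.12 to 0.00074 at day 8, and between days from -0.084 to 0.25 in control and from -0.12 to 0.077 in pregnant samples.

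Counts over all probes moved more. At day 12 102 probes passed, against 13 with normexp, 218 where all 22 arrays had to be well above background, 287 under a trended robust prior, 303 in the authors' table and 9 from day 12 arrays alone. In the interaction 4 passed, against 0 with quantile normalisation, the stricter filter and the authors' table, 2 without a filter or with slide as a block, and 11 under the trended prior. Between days 2727 passed in control samples (950 higher, 1777 lower), against 4447 with quantile normalisation, 1620 with normexp, 282 in the authors' table (11 higher, 271 lower), 772 with slide and 211 with scanning day as a random block. In pregnant samples 9332 passed (4280 higher, 5052 lower), against 388 with normexp (132 higher, 256 lower), 836 in the authors' table and 3433 with scanning day, and median scaling gave 9960 (2958 higher, 7002 lower). Without mares of 1 number these 4 counts ran from 22 to 977 (the highest without mare 3), 0 to 33, 347 to 2046 and 5478 to 8832. Normexp moved the median of all probes to 0.34 at day 12, 0.38 in the interaction and 0.39 in pregnant samples, and median scaling moved it to -0.15 in the last.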
